A study of Oryctolagus cuniculus with 6 samples.

Results

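Mucin-type O-glycan biosynthesis genes were examined in RNA from injured rabbit (Oryctolagus cuniculus) trachea. The members are the 8 Ensembl identifiers that the authors' deposited pathway enrichment table lists for the term, of 16815 genes in the deposited count table. That table places them in a cluster of 176 genes and counts 21 genes of the term in its background, so the other 13 are not identified by it and were not analysed here. All 8 were measured, and all 8 passed the filter on low counts. How the authors formed that cluster is not stated in the files. The genes are treated here as selected on the difference between hydrogel and blank in these same libraries. Every value of that difference given below is therefore a description without a test.

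The hydrogel group received the LA@PA-TA@C hydrogel after epithelial injury, and the blank group had an epithelial deficiency with no further agent named in the labels. Both groups were wild type animals, each with 3 libraries called biological replicates in the design text, and tracheae were taken on day 14. The sources used here do not give age, sex or strain. No RNA library of uninjured trachea was analysed here, so a level in hydrogel cannot be set against a healthy one.

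Mucin-type O-glycosylation is a stepwise process in the Golgi apparatus. Polypeptide GalNAc transferases attach N-acetylgalactosamine to serine or threonine residues of a protein, and further transferases then add galactose, N-acetylglucosamine and sialic acid to build and cap the chain. In the airway the main carriers are mucins, the gel-forming and membrane-bound glycoproteins that goblet cells, submucosal glands and other epithelial cells make, and their sugar chains hold water in the mucus layer. The enzymes of the pathway act in many epithelia and are not restricted to mucus-producing cells. The files do not pair the rabbit identifiers with symbols, and 0 of the 8 matched the RefSeq gene table (assembly mOryCun1.1). No step of the pathway, sequence, gene length or position is therefore assigned to any member, and levels are compared across libraries within a gene and not between genes.

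Total counts were 16827419 to 23095010 per hydrogel library and 17292087 to 23390531 per blank library, so the depth ranges overlapped. Across the 13598 genes tested, Pearson's r of log2 CPM (CPM being counts scaled to the total of a library) was 0.863 to 0.942 between hydrogel libraries, 0.841 to 0.880 between blank libraries and 0.687 to 0.833 between groups. These values run over genes, which are not independent replicates. Blank replicate 3 had the lowest correlation with each of the 3 hydrogel libraries. In bulk tissue, fewer cells of a type and less RNA per cell cannot be told apart. Markers of secretory, ciliated, basal, stromal and immune cells could not be read without symbols, so the labelled tissue was not checked against its markers.

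Each of the 8 genes had a higher level in every hydrogel library than in every blank library. The same was true of 18.7% of all tested genes, and for the 8 it follows in part from how they were chosen. The geometric mean level over the 8 genes was 43.0, 53.0 and 47.3 CPM in hydrogel replicates 1, 2 and 3, against 8.75, 7.60 and 1.42 CPM in blank replicates 1, 2 and 3. The hydrogel libraries thus lay close together, while blank replicate 3 lay well under the other blanks. The group values were 47.8 ± 5.04 CPM in hydrogel and 5.92 ± 3.94 CPM in blank (SD, n = 3 each). Without blank replicate 3 the blank value was 8.18 CPM.

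**Figure D1:**
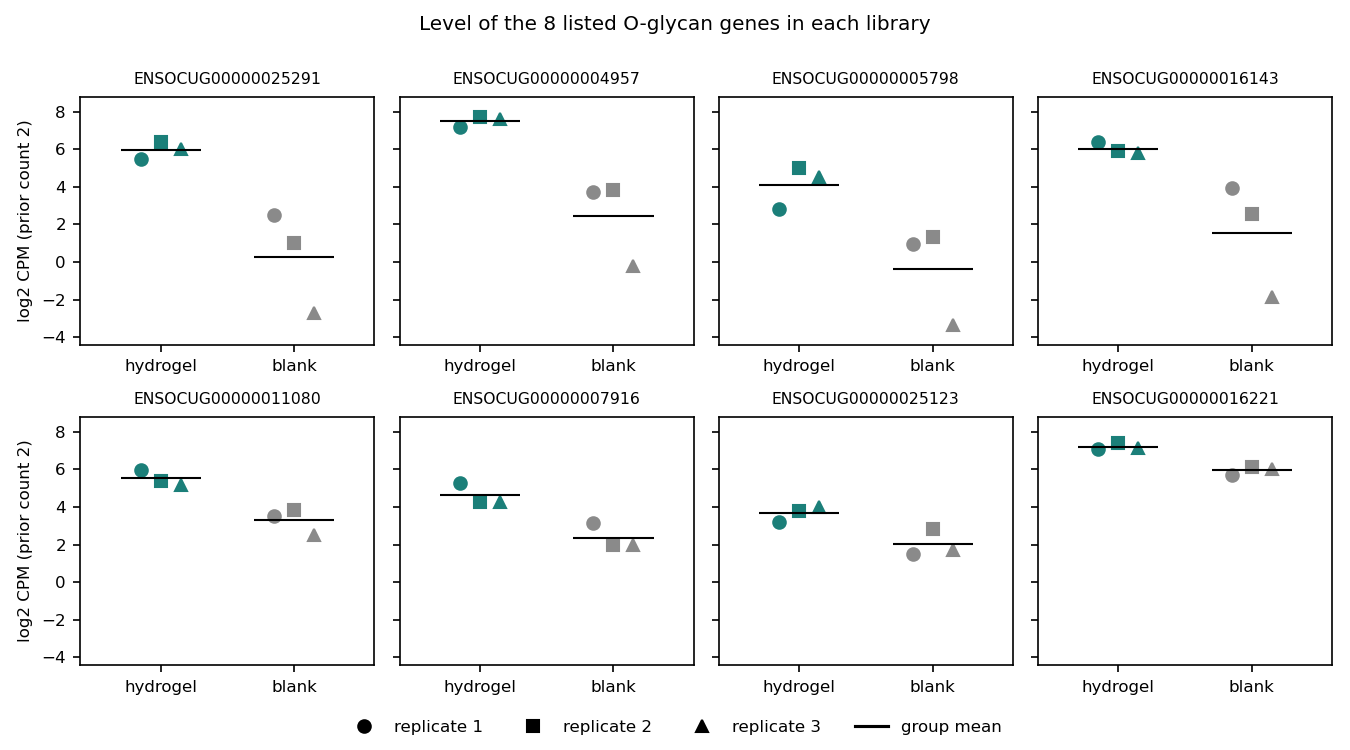
Level of each of the 8 listed genes in the 3 hydrogel and 3 blank libraries, in log2 CPM with a prior count of 2. Symbols mark the replicate number and bars the group mean. In every panel the hydrogel points lie above the blank points, and in the 4 upper panels blank replicate 3 lies far under the other blanks. Levels are not scaled to gene length, so heights are compared within a panel only.

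The 8 genes fell into 2 patterns by their level in blank replicate 3. In 4 of them (ENSOCUG00000016143, ENSOCUG00000004957, ENSOCUG00000005798 and ENSOCUG00000025291) blank replicate 3 held less than 0.1 of the mean CPM of the other blank libraries. In the other 4 it held a level near theirs or moderately lower. This division was made after the values were seen and is given without a test.

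ENSOCUG00000004957 had 145, 206 and 197 CPM in hydrogel replicates 1, 2 and 3, against 13.0, 13.9 and 0.752 CPM in blank replicates 1, 2 and 3. The level in blank replicate 3 rested on 13 counts (exact 95% Poisson interval 0.400 to 1.29 CPM). Even the lowest hydrogel library was 10.5 times the highest blank library, the widest gap among the 8. The log2 fold change, hydrogel over blank, was 4.29 with an approximate standard error of 0.87 (edgeR fit over all tested genes).

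ENSOCUG00000025291 had 44.9, 82.3 and 65.0 CPM in hydrogel replicates 1, 2 and 3, against 5.56, 1.94 and 0.0578 CPM in blank replicates 1, 2 and 3. The last value is 1 count (exact 95% Poisson interval 0.00146 to 0.322 CPM). The blank libraries thus differed among themselves far more than the hydrogel libraries did. Its log2 fold change was 4.57 with an approximate standard error of 1.08, the highest of the 8 with all 6 libraries. Without blank replicate 2 it was 4.33, under the 4.56 of ENSOCUG00000004957 in the same fit.

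ENSOCUG00000016143 had 83.1, 59.7 and 54.8 CPM in hydrogel replicates 1, 2 and 3, against 15.2, 5.69 and 0.173 CPM in blank replicates 1, 2 and 3. Blank replicate 3 held 3 counts of it (exact 95% Poisson interval 0.0358 to 0.507 CPM). Here the order in hydrogel was turned round relative to ENSOCUG00000025291, with replicate 1 highest. Its log2 fold change was 3.14 with an approximate standard error of 1.10.

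ENSOCUG00000005798 had 6.95, 31.9 and 22.8 CPM in hydrogel replicates 1, 2 and 3, against 1.84, 2.37 and 0 CPM in blank replicates 1, 2 and 3. No count was seen in blank replicate 3, which allows up to 0.173 CPM by a floor of 3 counts, and the exact 95% Poisson interval ends at 0.213 CPM. It was the most variable member within hydrogel, with a 4.59-fold range between the libraries. The lowest hydrogel library was still 2.93 times the highest blank library. Its log2 fold change was 3.85 with an approximate standard error of 1.23.

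The other 4 genes kept a clear level in every blank library. ENSOCUG00000016221 had 134, 169 and 140 CPM in hydrogel replicates 1, 2 and 3, against 52.6, 69.6 and 63.7 CPM in blank replicates 1, 2 and 3. It was the steadiest member within both groups, with a 1.26-fold range in hydrogel and a 1.32-fold range in blank. It also had the lowest log2 fold change of the 8, 1.21 with an approximate standard error of 0.18.

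ENSOCUG00000011080 had 62.6, 42.3 and 36.1 CPM in hydrogel replicates 1, 2 and 3, against 11.5, 14.0 and 5.67 CPM in blank replicates 1, 2 and 3. Blank replicate 3 was lowest here too, but by 2.47-fold relative to the highest blank library. Its log2 fold change was 2.15 with an approximate standard error of 0.38.

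ENSOCUG00000007916 had 39.2, 19.4 and 19.5 CPM in hydrogel replicates 1, 2 and 3, against 8.85, 3.84 and 3.87 CPM in blank replicates 1, 2 and 3. In each group replicate 1 stood above a pair of nearly equal libraries. Its log2 fold change was 2.15 with an approximate standard error of 0.53.

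ENSOCUG00000025123 had 9.10, 13.7 and 15.7 CPM in hydrogel replicates 1, 2 and 3, against 2.78, 6.97 and 3.24 CPM in blank replicates 1, 2 and 3. The groups came closest to each other in this gene, the lowest hydrogel library being 1.30 times the highest blank library. Its log2 fold change was 1.57 with an approximate standard error of 0.50.

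The authors' deposited comparison table, holds genes with an adjusted p under 0.05 whose log2 fold change exceeds 2 in size, and 6 of the 8 are in it. In the authors' deposited table the lowest log2 fold changes among these 6 were 2.14 ± 0.43 (standard error) for ENSOCUG00000011080 and 2.15 ± 0.56 for ENSOCUG00000007916, just inside the limit. The 2 genes not in it were ENSOCUG00000025123 and ENSOCUG00000016221, which had log2 fold changes of 1.57 and 1.21 in a DESeq2 fit of the counts.

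With edgeR's quasi-likelihood test, 3 of the 8 (ENSOCUG00000004957, ENSOCUG00000011080 and ENSOCUG00000016221) had a Benjamini-Hochberg adjusted p under 0.05 over all 13598 genes, where 4.49% of all tested genes were called higher in hydrogel and 6.36% in either direction. With DESeq2 all 8 were called, where 8.75% of tested genes were called higher. The list is taken to come from that contrast, so neither count supports anything about it. The median log2 fold change was 2.64 over the 8 genes and -0.03 over all tested genes. Without hydrogel replicate 2 or without hydrogel replicate 3, 0 of the 8 were called by edgeR, where 0.036% and 0.0501% of all tested genes were called higher. In those fits 6 and 7 of the 8 had an unadjusted p under 0.05, as did 15.4% and 16.3% of all tested genes. Without hydrogel replicate 1, ENSOCUG00000016221 was the 1 member called, where 2.81% of all tested genes were called higher. These counts, too, are descriptions of genes chosen on this contrast.

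**Figure D2:**
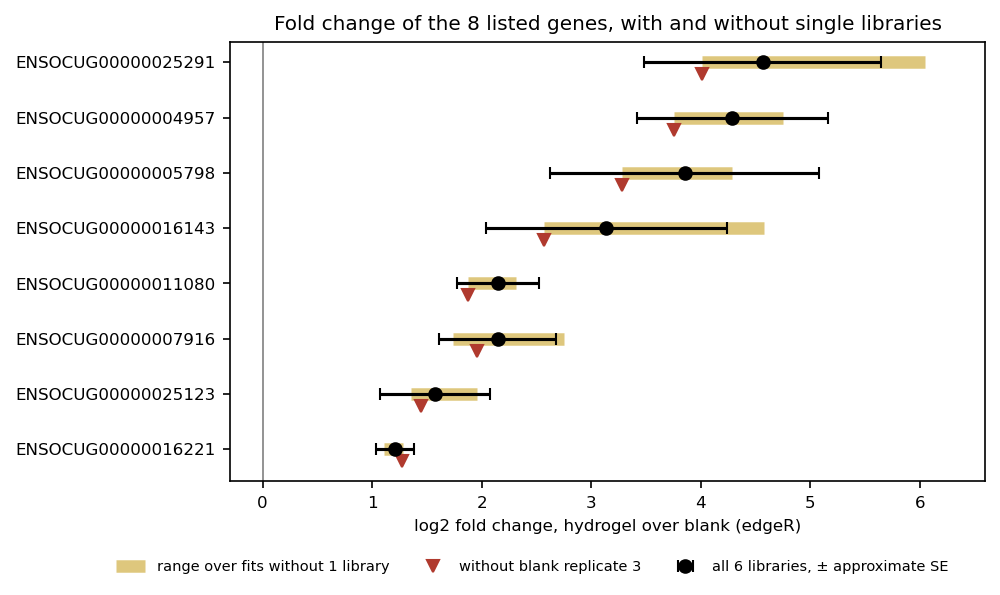
Log2 fold change, hydrogel over blank, of the 8 listed genes in the edgeR fit of all 6 libraries (points with the approximate standard error), the range over the 6 fits without 1 library (bands) and the value without blank replicate 3 (triangles). All values lie above 0, as the choice of genes made nearly certain. The 4 genes near absent in blank replicate 3 have the widest standard errors.

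Leaving out blank replicate 3 lowered the log2 fold changes of 7 of the 8 genes, all but ENSOCUG00000016221, and those of the genes near absent there stayed above those of the other 4. The ratio of mean CPM, hydrogel over the remaining 2 blank libraries, was 13.6 for ENSOCUG00000004957 and 17.1 for ENSOCUG00000025291. It was 6.31 for ENSOCUG00000016143 and 9.76 for ENSOCUG00000005798. Among the other 4 genes this ratio was 2.41 to 4.10. With all blank libraries the same ratio was 9.39 to 25.4 in the 4 genes near absent in blank replicate 3 and 2.38 to 4.71 in the other 4. The genes near absent in blank replicate 3 were also those with the larger ratio between hydrogel and the other blank libraries. All 8 are treated as chosen on this difference and were divided after the values were seen, so this is a description only.

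Summed over genes, the 4 genes near absent in blank replicate 3 averaged 333 CPM in hydrogel, against 35.6, 23.9 and 0.983 CPM in blank replicates 1, 2 and 3. The other 4 summed to 233 CPM in hydrogel on average, against 75.8, 94.4 and 76.5 CPM in blank replicates 1, 2 and 3. The second sum lay between those of the other blank libraries. Its 4 genes were set apart by not being near absent in blank replicate 3. That sum is therefore no separate evidence about the library. These sums are of reads, not scaled to gene length, and ENSOCUG00000016221 alone gave 63.7 of the 76.5 CPM in blank replicate 3.

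**Figure D3:**
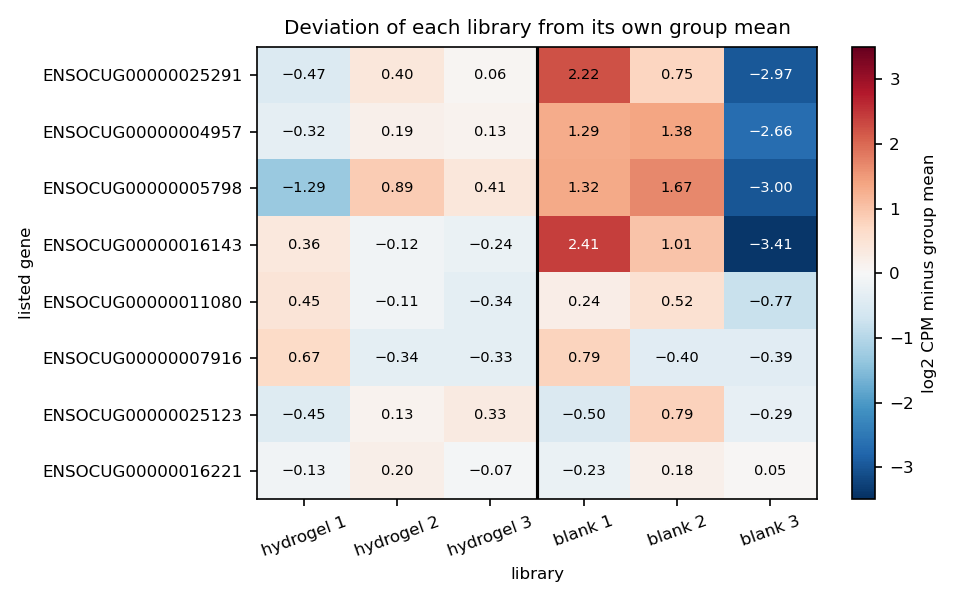
Log2 CPM (prior count 2) of each library minus the mean of its own group, for the 8 listed genes in rows and the 6 libraries in columns. In blank replicate 3 the value lies between -3.41 and -2.66 in the 4 upper rows and between -0.77 and 0.05 in the 4 lower rows; hydrogel replicate 1 lies above the hydrogel mean in 3 rows and below it in 5.

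Blank replicate 3 stood apart in many genes outside the list. It held less than 0.1 of the mean of the other blank libraries in 11.3% of all tested genes, against 1.62% for blank replicate 1 and 4.72% for blank replicate 2 measured in the same way. Of the 8 listed genes, 4 met this in blank replicate 3 and 0 in either other blank library. The median difference of blank replicate 3 from the mean of the other blanks was -2.57 on the log2 CPM scale over the 8 genes and -0.16 over all tested genes. The 8 are treated as chosen for a higher level in hydrogel, and a low blank library adds to that difference. Their values here are therefore not independent of the choice and are descriptions only. Whether a different cell content of that trachea goes with this was not tested.

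**Figure D4:**
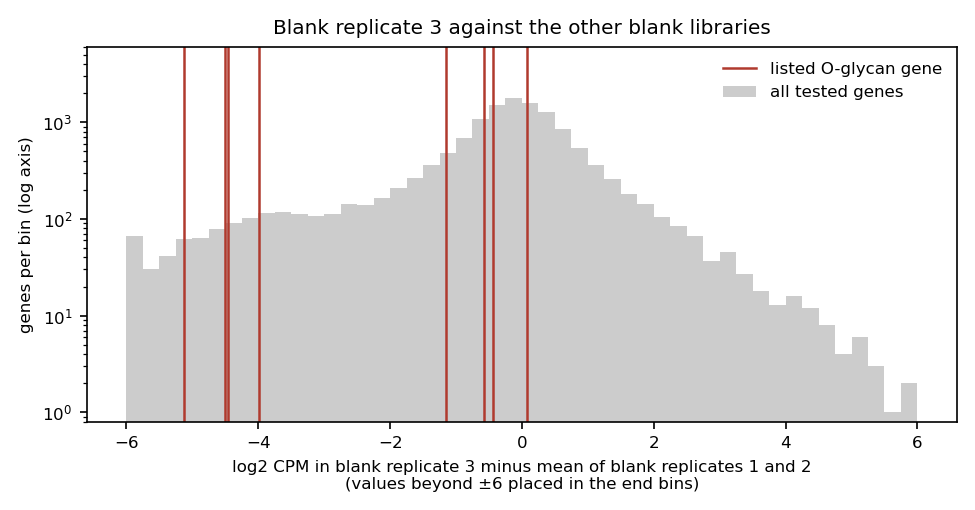
Number of tested genes (log axis) by the difference in log2 CPM between blank replicate 3 and the mean of blank replicates 1 and 2. Vertical lines mark the 8 listed genes: 4 lie between -5.12 and -3.99, in the long left tail of all genes, and 4 lie between -1.15 and 0.07.

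Within groups the blank libraries were the more variable ones for every member. The SD of log2 CPM was larger in blank than in hydrogel in 8 of 8 genes, as it was in 64.5% of all tested genes. The median SD over the 8 genes was 0.41 in hydrogel and 1.50 in blank, against 0.38 in hydrogel and 0.50 in blank over all tested genes. Counts of the 8 were also higher in hydrogel, between 155 and 4754 per library, against 0 to 1467 in blank, and the part of low counts in the spread was not tested. In 2 other pathway lists of 8 genes from the same deposited table and cluster, the median blank SD was 0.53 for glutathione metabolism and 0.82 for PPAR signaling. In those lists 1 gene each was under 0.1 of the other blanks in blank replicate 3, and the difference from the O-glycan list was not tested.

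The members did not share one order of libraries within hydrogel. Hydrogel replicate 1 was the highest hydrogel library in 3 genes (ENSOCUG00000007916, ENSOCUG00000011080 and ENSOCUG00000016143) and the lowest in the other 5. Over all tested genes it was the highest in 41.4% and the lowest in 38.6%. The distance of replicate 1 from the mean of the other hydrogel libraries ran from -1.94 for ENSOCUG00000005798 to 1.01 for ENSOCUG00000007916 on the log2 CPM scale. Within blank, replicate 2 was highest in 5 genes, replicate 1 in 3 and replicate 3 in none. Over all tested genes these shares were 46.4%, 24.6% and 28.7% in the same order, and the difference was not tested.

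The 8 profiles were also compared by the root-mean-square difference of centred log2 CPM over the 6 libraries. Profiles were centred but not scaled, so the size of the difference between groups enters this measure as well as its shape. The members differed from their own mean profile by 0.81 for ENSOCUG00000011080 to 1.39 for ENSOCUG00000016221, the member with the lowest log2 fold change. ENSOCUG00000025291, the member with the highest, differed by 1.38. Between 255 and 1675 tested genes outside the list lay closer to that mean profile than a given member did. The 2 closest were ENSOCUG00000023948, at a difference of 0.16, and ENSOCUG00000008483, at 0.24. ENSOCUG00000023948 had 11.1, 15.3 and 11.5 CPM in hydrogel replicates 1, 2 and 3, against 2.91, 2.23 and 0.347 CPM in blank replicates 1, 2 and 3. ENSOCUG00000008483 had 30.3, 28.0 and 21.3 CPM in hydrogel, against 3.63, 3.56 and 0.578 CPM in blank, in the same order of replicates. That both were higher in hydrogel and lowest in blank replicate 3 follows from their choice as closest to a mean profile of that shape. Neither is listed under any term of the authors' deposited enrichment tables.

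None of the 8 genes appears under any of the other 40 terms of the authors' deposited enrichment tables (27 GO and 13 further KEGG terms). The cilium, matrix and vessel terms there belong to other clusters than the 8 genes. Whether clusters can share genes is not stated, so the lack of overlap with those terms may follow from the clustering. In sections, the authors' deposited table of measurements gives periodic acid-Schiff (PAS) staining, which colours carbohydrate-rich material including mucins. That deposited table gives blank minus hydrogel as -14 in units not stated (95% interval -18.95 to -9.051), so the stain was higher in hydrogel than in blank. It also holds a sham group. Blank minus sham was -18.67 (95% interval -23.62 to -13.72). Hydrogel minus sham was -4.667, with a 95% interval of -9.615 to 0.2819 that includes 0. The sections are not tied to the RNA libraries by the labels.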

How the data were processed

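The authors deposited whole-number read counts per gene for 3 hydrogel and 3 blank libraries. The 6 tables per sample equalled the series table. The submitters' processing notes name Trimmomatic 0.39, HISAT2 2.2.1, featureCounts 2.0.2 and DESeq2 1.34.0, with the builds GRCh38 and mm10. Which rabbit assembly and gene models were used, and whether counting used strand, is not given in the sources used here, so near-identical copies and overlapping genes may share reads. A comparison table deposited by the authors holds log2 fold changes with standard errors and adjusted p-values. Their deposited enrichment tables list the genes of each term.

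CPM used total counts, and log2 CPM added a prior count of 2. Counts were fitted with edgeR 4.0.16 (quasi-likelihood, TMM scaling, filterByExpr, group as the only term) in R 4.3.3, with Benjamini-Hochberg adjustment over the 13598 genes kept and a threshold of 0.05. Standard errors are approximate, being the log2 fold change divided by the square root of F. The fits were also run on 3 simulated data sets, with the outcome not reported here. Alternatives used DESeq2 1.42.0 and limma 3.58.1. Libraries of one group were not copies of each other: the most alike pair, hydrogel replicates 2 and 3, had a chi-square of 30.4 per gene on average. P-values weigh the difference between groups against the spread between these samples. Only counting error enters the Poisson intervals and floors.

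The members and lists were chosen with earlier results of these data known. All 8 members were named, plus the 2 tested genes closest in profile. Marker and pathway lists by symbol could not be used. A workbook holds 67 sheets, of which 63 were not used, and 477 of its columns with numbers were not used. Figures were drawn with matplotlib 3.10.9.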

Additional observations from a re-analysis of the deposited data

How the results depend on the processing

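All 8 fold changes stayed above 0 in each of the 104 values from the alternatives planned, and each moved by less than the replicate spread. The genes are treated as chosen on this difference, and every hydrogel library lay above every blank library in each. A change of sign was therefore hardly possible, and its absence is a description only. The alternatives were other scalings, filters, tests, the replicate block and each library left out. That spread, the pooled within-group SD of log2 CPM, was 1.64 to 2.16 in the 4 genes near absent in blank replicate 3. It was 0.19 to 0.63 in the other 4. In the first 4 the spread includes the low blank replicate 3, so even a large move counts as less. With all 6 libraries kept, the fold changes of genes near absent in blank replicate 3 depended most on the method. The log2 fold change of ENSOCUG00000016143 was 3.14 with edgeR and 4.27 with limma-voom. It was 2.57 without blank replicate 3 and 4.58 without blank replicate 1. With single libraries left out, that of ENSOCUG00000007916, not near absent there, ran from 1.74 to 2.75. That of ENSOCUG00000004957, near absent there, ran from 3.75 to 4.75. That of ENSOCUG00000025291 was 4.57 with all libraries and 6.05 without blank replicate 1. The count of listed genes called was 3 with edgeR, 8 with DESeq2 and 5 with total-count scaling, which was chosen after seeing the data. The shares of all tested genes called higher in hydrogel were 4.49%, 8.75% and 4.69% in the same order. Over all genes the edgeR fit called 865 genes, 610 higher and 255 lower in hydrogel. DESeq2 called 2104, 1281 higher and 823 lower. Fits without 1 library called 7 to 741 genes, of which 5 to 603 were higher and 2 to 246 lower, and 0 to 4 of the 8. In those fits 0.036% to 4.31% of all tested genes were called higher. With the replicate block, edgeR called 15 genes, 10 higher (0.0735% of all genes tested) and 5 lower, and 0 of the 8. All 8 had an unadjusted p under 0.05 in that edgeR fit, as did 18.4% of all genes tested. Deviations from the group means correlated at -0.20, 0.01 and -0.10 between libraries numbered 1, 2 and 3, and the labels do not say that the numbers pair animals. The cause of these differences was not tested. With 0 to 13 counts in blank replicate 3, counting error limits how exactly the levels of the 4 genes near absent there are known.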
